A study of Arabidopsis thaliana with 9 samples.

Results

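AT1G58025 and AT1G42705 were the 2 genes, of 13355 that had a probe set listing a single gene, called higher in dyt1 anthers and lower in ams anthers than in wild type. They were chosen by their measured values in these arrays: each had a limma adjusted p under 0.05 in both comparisons, with opposite signs. Their differences from wild type are therefore given below as a description, without a test. The call in dyt1 against wild type was rare, with 0.0747% of 22746 probe sets called higher, and in ams against wild type 1.06% were called lower. Only 0.00879% of probe sets, these 2, met both conditions.

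The study dissected anthers at stages 4 to 7 from floral buds of Arabidopsis thaliana plants aged 3 to 4 weeks and hybridised their RNA to Affymetrix arrays. The 9 arrays fall into 3 groups of 3 samples, which the labels call biological replicates: wild type of the Columbia accession, the dyt1 mutant and the ams mutant. The sources used here do not name the mutant alleles. The replicates may share a planting, and p-values below measure only the spread between these samples. Plants of all groups were grown in the same long-day conditions, per the labels.

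DYT1 and AMS are basic helix-loop-helix transcription factors of the tapetum, the anther wall layer that surrounds and feeds the developing pollen mother cells. DYT1 acts early in the tapetum and is needed for the expression of AMS, so many tapetal genes are known to be lost in both mutants. In anthers sampled in bulk, fewer cells of a type and less RNA per cell cannot be told apart.

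AT1G58025 is a protein-coding gene of chromosome 1 with 6 RefSeq transcripts, and AT1G42705 is annotated there as a pseudogene of the same chromosome, with 0 RefSeq transcripts. Neither has a name or a function in the gene table used here, so none is given. A pseudogene is commonly a copy of a gene that no longer encodes the complete protein, although RNA may still be made from it. Whether genes so annotated here include those of transposable elements, which are mobile stretches of DNA, was not examined. Each gene was read by 1 probe set. That of AT1G58025 is of the ordinary type, while that of AT1G42705 carries the suffix by which Affymetrix marks probes shared between transcripts, as did 4.11% of all probe sets. The value given for AT1G42705 may therefore be the summed signal of several related genes.

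Levels below are log2 expression values, where a difference of 1 is a 2-fold change of signal. The lower quartiles of the 9 arrays lay between 4.58 and 4.78, and a group mean within or below that range counts here as indistinct from background and is given no fold.

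AT1G58025 stood at 8.41, 8.03 and 7.83 in wild type 1, 2 and 3. It was at 10.48, 10.26 and 10.33 in dyt1 1, 2 and 3, and at 4.25, 4.48 and 5.07 in ams 1, 2 and 3. The 3 groups did not overlap: the lowest dyt1 array lay 1.85 above the highest wild-type array, and the lowest wild-type array lay 2.76 above the highest ams array. The wild-type mean was 8.09 ± 0.29 (SD, n = 3), the dyt1 mean 10.36 ± 0.11 and the ams mean 4.60 ± 0.43. The mean was thus higher in dyt1 than in wild type by a log2 difference of 2.27, or 4.81-fold. In ams the log2 difference from wild type was -3.49, a difference of signal only, since the ams mean cannot be told from background. Between the 2 mutants the log2 difference, dyt1 minus ams, was 5.76.

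AT1G42705 had the same order of groups. It stood at 7.02, 6.31 and 6.20 in wild type 1, 2 and 3. In dyt1 it was at 8.85, 8.88 and 8.62, and in ams at 5.04, 5.38 and 5.48. All dyt1 arrays were above all wild-type arrays by at least 1.60, and all wild-type arrays were above all ams arrays by at least 0.72. The wild-type mean was 6.51 ± 0.44 (SD, n = 3), the dyt1 mean 8.78 ± 0.14 and the ams mean 5.30 ± 0.23. The log2 difference from wild type was 2.27 in dyt1, or 4.84-fold, and -1.21 in ams, where the mean was 2.31-fold lower.

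**Figure D1:**
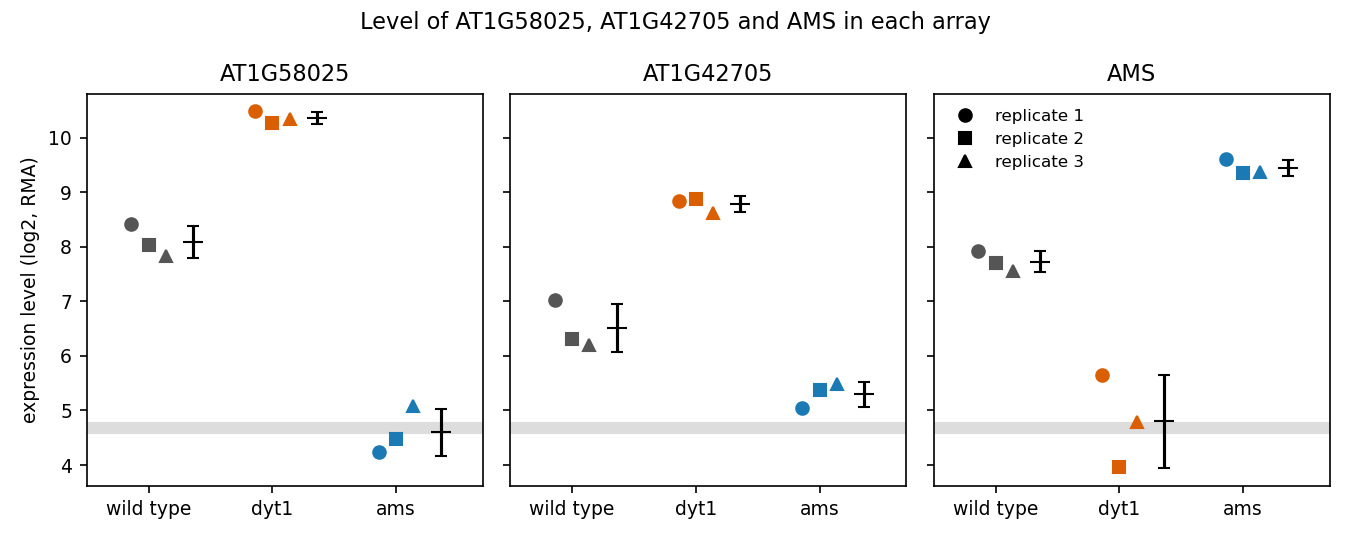
Level of AT1G58025, AT1G42705 and AMS (vertical axis, log2 RMA value) in each of the 3 arrays of wild type, dyt1 and ams, with the group mean and SD as black bars; the grey band spans the lower quartiles of the arrays, 4.58 to 4.78. AT1G58025 and AT1G42705 are highest in dyt1 and lowest in ams with no overlap of groups, and AMS has the reverse order.

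The members had nearly the same difference in dyt1, but not in ams. The difference between dyt1 and wild type was 2.27 on the log2 scale for each. In ams the signal of AT1G58025 went down to the range of background, and that of AT1G42705 stayed just above it.

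The replicates were tightest in dyt1. The SD over the dyt1 arrays was 0.11 for AT1G58025 and 0.14 for AT1G42705, where the median SD over all probe sets was 0.23, and 80.9% and 72.7% of probe sets had a larger SD there. In wild type the SDs of 0.29 and 0.44 lay at or above the median of 0.27. In ams they were 0.43 and 0.23 against a median of 0.17, and 8.49% of probe sets had a larger SD than AT1G58025. The values of AT1G58025 in ams straddle the background range. These spreads entered the calls that chose the genes and are a description only.

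Arrays of the same genotype did not always resemble each other. Wild type 3 and dyt1 2, like the 3 ams arrays, had a signal of the 25S ribosomal RNA control above 11 (11.5 to 12.4), and the other 4 arrays had 5.51 to 9.59. The difference between the 3' and 5' actin probe sets, which grows as RNA is broken, was 2.10 to 2.92 in the former and 1.04 to 1.38 in the latter. Spike-in RNAs averaged 3.89 and 3.76 in wild type 1 and 2 and 6.73 to 7.25 in the other 7 arrays. Array medians lay between 6.74 and 6.94. Of the tissue markers, the early anther genes SPL and EMS1 were at 8.38 to 9.59 and 9.73 to 10.9 over all 9 arrays. Of 5 meiocyte markers 1 was measured, ATSPO11-1, at 5.37 to 6.70. Of 7 tapetal markers 6 were measured, and the log2 of their summed signal was 14.39 to 14.67 in wild type, 7.93 to 12.53 in dyt1 and 11.83 to 13.61 in ams. The dyt1 mean was below the wild-type mean for 6 of them and the ams mean for 4, with ATA27 (2.30) and AMS (1.72) above it in ams. ATA27 was uneven within wild type, at 7.16, 7.13 and 11.59, and A9 (AT5G07230) within dyt1, at 11.12, 4.68 and 10.81. The part of these differences in the results below was not tested. INO of the ovule was at 4.67 to 6.26 and MGH3 of later pollen at 4.33 to 5.62, while 0 of 4 green leaf markers and 0 of 3 stamen identity genes had a named probe set.

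The size of the differences was also taken within these sets of arrays. Since the groups do not overlap, no subset of arrays could change their order, and the values are no check of it. Among the arrays of low 25S signal, with 2 of wild type and 2 of dyt1, the log2 difference between dyt1 and wild type was 2.18 for AT1G58025 and 2.07 for AT1G42705. Among those of high 25S signal, dyt1 2 alone lay above wild type 3 alone by 2.43 and 2.68. The low set holds 0 ams arrays. In the high set the 3 ams arrays differed from wild type 3 by -3.23 for AT1G58025 and by -0.90 for AT1G42705. Spike-in level separates wild type 1 and 2 from dyt1 1 and 3, and its part in the low set was not tested. Wild type 3, at a spike-in mean of 7.13, and dyt1 2, at 7.25, were alike in it.

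When dyt1 2 was left out, 12 probe sets were called higher in dyt1 and lower in ams, AT1G58025 and AT1G42705 among them, 7 of them named here. In dyt1 2, AT1G58025 lay -0.14 and AT1G42705 0.15 from the mean of dyt1 1 and 3 on the log2 scale. AT2G47310 was the only other of the 12 whose dyt1 2 value was above all wild-type arrays, at 5.77 against 4.97 to 5.39 in wild type. AOP3, an oxygenase of glucosinolate synthesis, stood at 10.59 and 10.53 in dyt1 1 and 3 but at 7.99 in dyt1 2, below its wild-type values of 8.57 to 8.83. AT5G11420 stood at 10.40 and 10.47 in dyt1 1 and 3 and at 6.57 in dyt1 2. In the other 9, dyt1 2 was not above all wild-type arrays. This contrast follows from the choice of probe sets: the 2 members were chosen with dyt1 2 in the fit, and the other 10 passed only without it, so it does not show that the members are steadier.

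**Figure D2:**
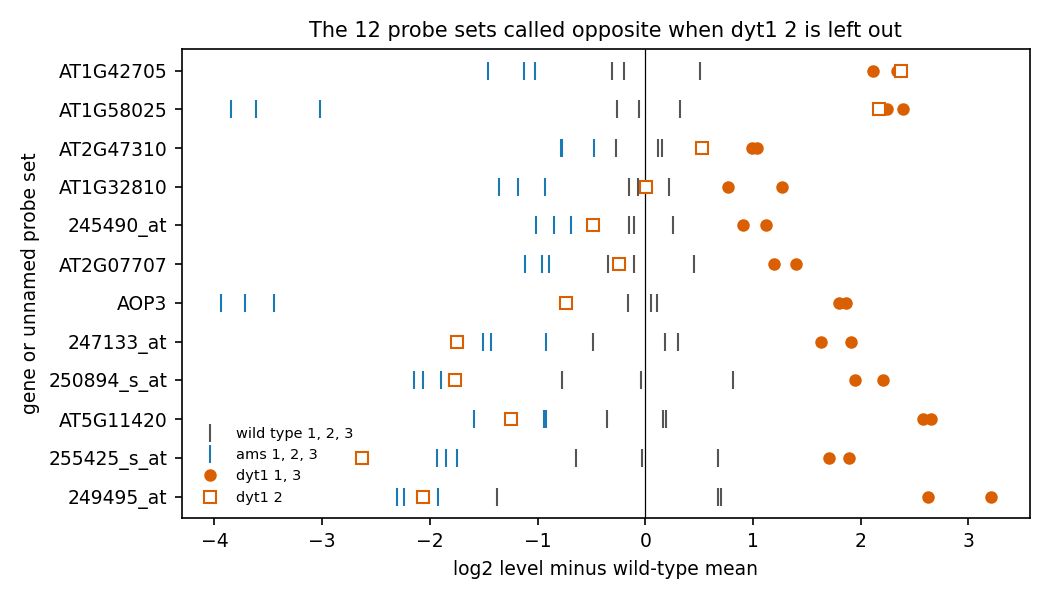
Log2 level minus the wild-type mean (horizontal axis) of the 12 probe sets called higher in dyt1 and lower in ams without dyt1 2; ticks are the wild-type and ams arrays, filled circles dyt1 1 and 3, and open squares dyt1 2. For AT1G58025 and AT1G42705 the open square lies beside the circles, while for 9 of the others, from AT1G32810 downwards, it does not exceed the highest wild-type array, a contrast set by how the probe sets were chosen.

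The calls themselves depended on the arrays in the fit. The 2 genes were called in both comparisons without wild type 3, and together with 10 further probe sets without dyt1 2. Without wild type 1, wild type 2, dyt1 1 or dyt1 3, 0 probe sets were called in both directions. Without ams 1, ams 2 or ams 3, 1 was called, AT1G58025. AT1G58025 was thus called in both comparisons in 5 of 9 omissions of an array and AT1G42705 in 2 of 9. Over the omissions their differences from wild type lay between 2.14 and 2.43 in dyt1 and between -3.73 and -3.31 in ams for AT1G58025, and between 2.12 and 2.53 in dyt1 and between -1.36 and -0.95 in ams for AT1G42705. A change of sign was not possible there, since the groups do not overlap.

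A call depends on the spread as well as on the order, so the order was also counted on its own. In 213 of 22746 probe sets, or 0.936%, all ams values lay below all wild-type values and these below all dyt1 values. The reverse order held in 76, or 0.334%. The 213 were mostly separated by little: the median of the smaller of the 2 gaps between neighbouring groups was 0.06 on the log2 scale. AT1G58025 ranked 1 with a smaller gap of 1.85, AT1G42705 ranked 2 with 0.72, and 3 probe sets in all had a smaller gap above 0.5. The values behind these gaps are those that chose the 2 genes. Their high ranks therefore follow largely from that choice and are a description only. The third is unnamed here, and its smaller gap was 0.66. The next named gene was AT3G63240, with a gap of 0.39, whose mean was 7.30 in wild type, 8.10 in dyt1 and 6.65 in ams.

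**Figure D3:**
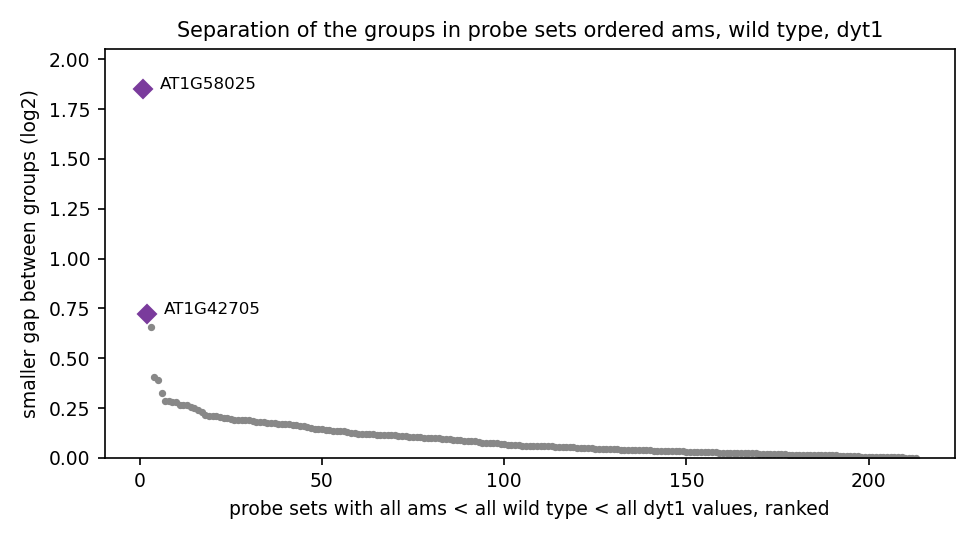
The smaller of the 2 gaps between neighbouring groups (vertical axis, log2) for the 213 probe sets in which all ams values were below all wild-type values and these below all dyt1 values, ranked from the largest gap (horizontal axis). AT1G58025 at 1.85 lies far above the rest, and AT1G42705 at 0.72 is close to the third probe set at 0.66. Both genes were chosen by the same values, so their places here largely follow from that choice.

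Just outside the rule lay genes called in 1 comparison with an opposite sign in the other. The nearest 3 genes were AT3G59570, AT4G22390 and AT4G18975. AT3G59570 had log2 differences of 0.52 in dyt1 and -0.83 in ams and was called in ams, but its other probe set gave 0.28 and -0.17. AT4G22390, read by a shared probe set, had 1.69 in dyt1, where it was called, and -0.48 in ams. AT4G18975 had 0.54 in dyt1 and -1.70 in ams, where it was called. Just inside the rule, AT1G42705 had 2.27 and -1.21.

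AMS was the only gene called in the mirror pattern, lower in dyt1 and higher in ams. It stood at 7.93, 7.70 and 7.55 in wild type, 5.66, 3.96 and 4.78 in dyt1 and 9.61, 9.36 and 9.37 in ams. The dyt1 arrays lay at least 1.89 below wild type and the ams arrays at least 1.43 above it. As the position of its probes against the mutation is not known here, the ams value does not check the label. The call depended on the arrays as well: the count of the mirror pattern was 0 without wild type 1, wild type 2, dyt1 3 or any 1 of the ams arrays, 13 without wild type 3 and 2 without dyt1 2.

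The genes around each member were examined next, since they were not used to choose the members. The 10 measured genes on each side were taken by gene order in the TAIR10.1 annotation, whose build may differ from that of the array design, so no coordinates are given. The nearest genes of AT1G58025 with a probe set of their own did not pass the test. AT1G57906, 7 genes before it, had log2 differences of -0.14 in dyt1 and -0.17 in ams (limma adjusted p = 0.787 and 0.662), and AT1G57850, 10 genes before it, 0.21 and -0.15 (adjusted p = 0.534 and 0.591). On the other side AT1G58070, 9 genes away, had -0.51 and -0.20 (adjusted p = 0.275 and 0.580), and AT1G58110, 13 genes away, 0.12 and 0.61 (adjusted p = 0.784 and 0.0974).

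Of the 20 neighbours of AT1G58025, 2 rose in ams, in the direction opposite to AT1G58025, and 0 were called in dyt1 by limma, with 5 at an unadjusted p under 0.05. Over all probe sets 3.51% were called in ams, 2.45% higher, and 0.193% in dyt1, with 14.5% at an unadjusted p under 0.05 in dyt1. AT1G58150, 17 genes away, stood at 4.19, 3.95 and 4.15 in wild type, at 4.00, 4.33 and 3.72 in dyt1 and at 6.45, 6.23 and 6.34 in ams. Its ams arrays were well above all others, by a log2 difference from wild type of 2.25 (SE 0.18, limma adjusted p = 0.000346). ZW9, 38 genes away, stood at 4.35, 4.72 and 4.34 in wild type, at 4.27, 4.13 and 4.08 in dyt1 and at 6.67, 6.73 and 7.53 in ams. It was again the ams arrays that were high (log2 difference 2.505, SE 0.24, limma adjusted p = 0.000888). Wild type and dyt1 means of both genes cannot be told from background. Both were also called lower in dyt1 than in ams (-2.33, adjusted p = 0.000256, and -2.81, adjusted p = 0.000439), where 4.87% of all probe sets were called, 2.42% lower. Each kept its call in ams in all 19 alternative settings run, with adjusted p values from 8.81e-05 to 0.00351 for AT1G58150 and from 0.000555 to 0.0079 for ZW9.

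Around AT1G42705 most annotated genes are themselves pseudogenes: 16 of the 20 genes nearest in order, against 3 of the 20 nearest to AT1G58025. None of its 20 measured neighbours was called by limma in dyt1, in ams or between the mutants, with 2, 2 and 4 at an unadjusted p under 0.05. Over all probe sets 0.193%, 3.51% and 4.87% were called, and 14.5%, 21.6% and 22.3% had an unadjusted limma p under 0.05. With 20 genes, 0 calls is close to these shares. In 13 of the 20 neighbours of AT1G42705 all 3 group means were within or below the background range, against 9 of the 20 around AT1G58025. AT1G42700, the gene next before it, had log2 differences of 0.01 in dyt1 and 0.04 in ams (limma adjusted p = 0.989 and 0.945), and AT1G42710, the gene next after it, 0.14 and -0.09 (adjusted p = 0.634 and 0.722). AT1G42697, 3 genes before it, had 0.0048 and -0.21 (adjusted p = 0.990 and 0.448), and AT1G42960, 15 genes after it, 0.34 and 0.13 (adjusted p = 0.549 and 0.786). Of these, AT1G42960 was at 11.22 to 11.55 in the means of the 3 groups and the other 3 were within or below the background range.

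**Figure D4:**
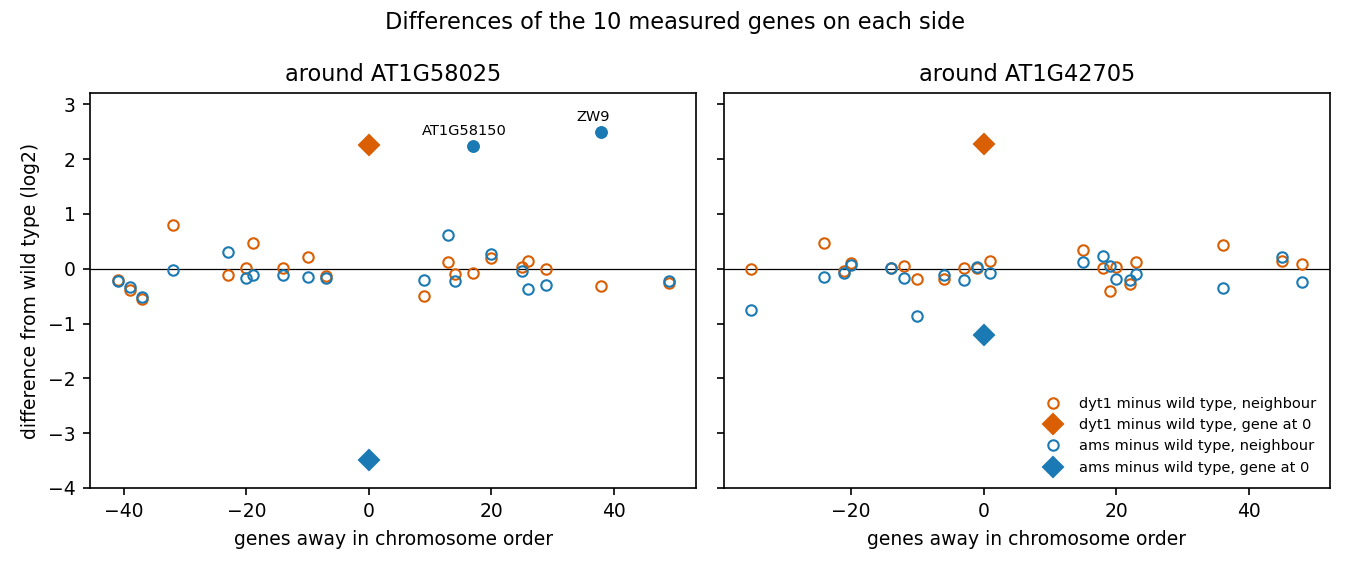
Log2 difference from wild type (vertical axis) of the 10 measured genes on each side of AT1G58025 and AT1G42705, by the number of genes away in chromosome order (horizontal axis), for dyt1 in orange and ams in blue; diamonds are the genes at 0, and filled circles are neighbours called at an adjusted p under 0.05. AT1G58150 and ZW9 are the called neighbours, both higher in ams at 2.25 and 2.505.

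Calls were also counted among pseudogenes and non-coding genes as a class. How many of these genes lay at background in all groups was not counted. Leaving out AT1G42705, 992 such genes were measured. In dyt1 against wild type 1 rose and 0 fell, or 0.101%, beside 0.193% of all probe sets called in either direction and 0.0747% called higher. The gene that rose was AT1G35650, a pseudogene, also of a shared probe set. In ams against wild type 14 rose and 8 fell, or 2.22%, beside 3.51% of all probe sets. AT1G35612 had the highest difference among those called in ams (2.13, adjusted p = 0.0151) and AT2G13750 the lowest (-1.78, adjusted p = 0.00292). The class had median differences of -0.0092 in dyt1 and -0.13 in ams, against 0.05 and -0.05 over all probe sets. All differences in this paragraph are on the log2 scale, with limma adjusted p values.

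A list of 21 bromodomain genes, readers of acetylated histones, was taken for comparison from general knowledge of the family. It was planned on the view that AT1G58025 belongs to this family, which the gene table used here does not show. That table names 3 genes as bromodomain genes. Only 6 of the 21 had a named probe set, and none of those 6 is among the 3. None was called against wild type in dyt1 or ams by limma, with 2 and 3 at an unadjusted p under 0.05, and their median log2 differences were 0.29 and -0.42. Over all probe sets 0.193% and 3.51% were called in these comparisons, and 14.5% and 21.6% had an unadjusted limma p under 0.05. Between the mutants 2 of 6 were higher in dyt1, beside 2.45% of all probe sets: AT1G20670 (log2 difference 1.41, limma adjusted p = 0.0243) and AT5G55040 (1.26, adjusted p = 0.0487). That count was 0 to 5 when single arrays were left out.

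The genes most like each member were found by Pearson's correlation of log2 levels over the 9 arrays, among 2912 other single-gene probe sets with an SD of at least 0.5. These correlations describe likeness over arrays that share 3 genotypes, and are given with no test. AT1G58025 was most like AT3G59570 (r = 0.987), AT5G56900 (0.968), AT1G02060 (0.967), DIM1A (0.966), AT5G61120 (0.961) and AT2G35430 (0.957). For AT3G59570 this holds for 1 probe set, and its other probe set had log2 differences from wild type of only 0.28 in dyt1 and -0.17 in ams. AT1G42705 was most like AT2G35430 (0.975), DIM1A (0.965), AT4G24290 (0.962), AT1G35650 (0.960), AT4G22390 (0.959) and AT5G17510 (0.954). The lists shared 2 genes, DIM1A, an adenosine dimethyltransferase, and AT2G35430. The members correlated with each other at 0.951, which ranked AT1G42705 at 9 for AT1G58025 and AT1G58025 at 8 for AT1G42705. Both were chosen for the same order of groups in these arrays, so this correlation and these ranks follow largely from that choice.

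The genes like AT1G58025 had the same order of groups, which follows largely from how they were picked, but much smaller differences. Their log2 differences from wild type ran from 0.31 for AT5G61120 to 0.71 for DIM1A in dyt1 and from -1.28 for AT5G56900 to -0.57 for AT2G35430 in ams. AT5G56900 was at 8.97, 8.71 and 8.91 in wild type, 9.06, 9.24 and 9.27 in dyt1 and 7.57, 7.52 and 7.65 in ams. The ams arrays of AT5G56900 stood well below the rest, and its dyt1 arrays just above wild type. Among those like AT1G42705 the difference in dyt1 was larger than that in ams. AT1G35650 was at 4.36, 4.31 and 4.28 in wild type, 6.63, 7.14 and 6.69 in dyt1 and 3.77, 3.64 and 4.30 in ams. Its wild-type and ams means cannot be told from background, so it shares with AT1G42705 the high dyt1 arrays only. AT4G22390 had 5.23, 5.63 and 5.35 in wild type, 7.22, 7.27 and 6.79 in dyt1 and 4.79, 4.81 and 5.17 in ams, and here the groups did not overlap. DIM1A was at 8.54, 8.23 and 7.98 in wild type, 8.85, 8.87 and 9.14 in dyt1 and 7.45, 7.56 and 7.73 in ams, again with no overlap. This order without overlap held in 0.936% of all probe sets. In these genes it follows largely from their choice by likeness.

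**Figure D5:**
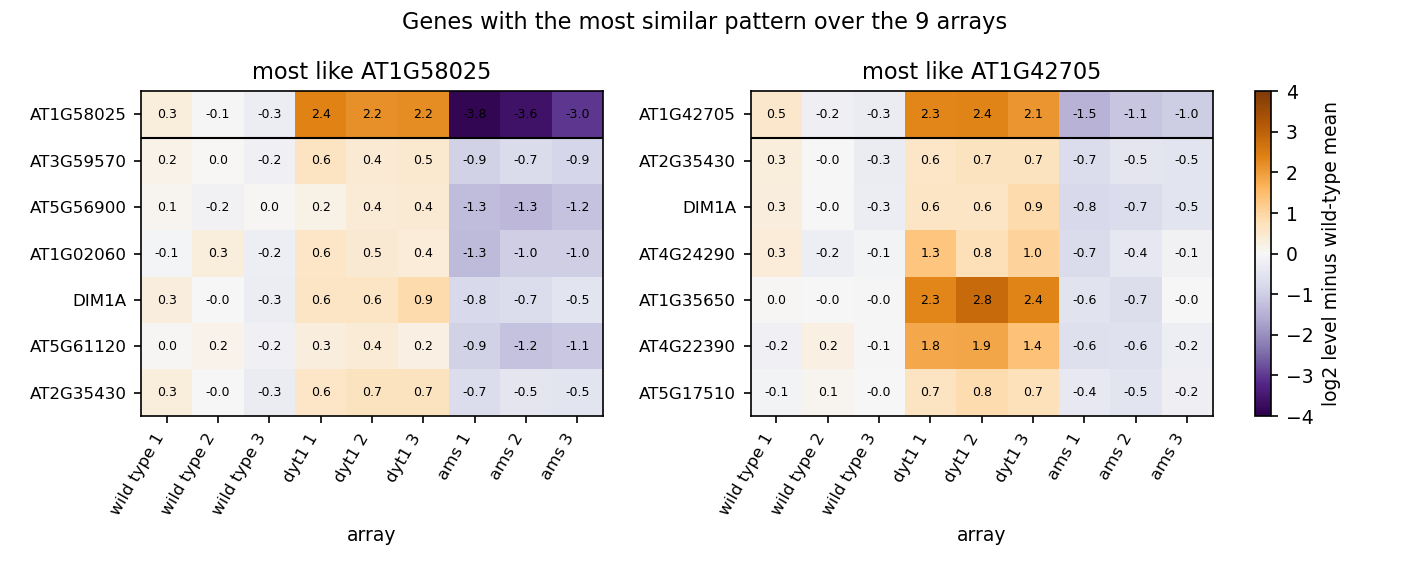
Log2 level minus the gene's wild-type mean (colour and printed number) in each of the 9 arrays (horizontal axis) for AT1G58025 and AT1G42705 in the top line of each panel and the 6 genes most like each below it. AT3G59570 has another probe set, not shown, with differences of 0.28 in dyt1 and -0.17 in ams. The genes like AT1G58025 have dyt1 differences of 0.31 to 0.71, far below its 2.27, while AT1G35650 and AT4G22390, like AT1G42705, reach 2.504 and 1.69.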

How the data were processed

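The values the authors deposited are log2 levels of probe sets. The submitters' processing notes name RMA as the tool, a method that subtracts background, equalises the arrays' distributions and combines the probes of a set. Whether 1 run covered all arrays is not stated there. Of 22810 probe sets, 64 controls were left out of the tests. The platform annotation listed 13513 probe sets with 1 gene, 503 with several and did not list 8730; 13436 of the first matched RefSeq by gene ID. A gene with several probe sets was taken by the one with the highest mean, except for the likeness and the genes just outside the rule, which used every single-gene probe set.

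The 3 group means of each probe set were estimated from the 9 arrays by limma 3.58.1 (lmFit, eBayes) in R 4.3.3, without a block, and adjusted by Benjamini-Hochberg over 22746 probe sets per comparison; a call is an adjusted p under 0.05. The script was tested on simulated data. The number of arrays limits the precision.

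The members and lists were chosen with earlier results of these data known. The genes named are the members, the genes of the opposite patterns, the 3 nearest outside the rule, the 6 most like each member, the nearest 2 measured neighbours on each side and any called neighbour, and bromodomain and marker genes; others were chosen after their values were seen. A protein comparison was not run, and no sequence was used here.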

Additional observations from a re-analysis of the deposited data

How the results depend on the processing

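For the 4 differences of AT1G58025 and AT1G42705 from wild type, no omission of arrays can reverse the direction, as the groups do not overlap, and the replicate block leaves the means as they are. Of the 15 alternatives run for each, they moved by more than 1 SD only for AT1G42705 within the arrays of high 25S signal, a setting added after the data were seen (2.68 in dyt1 and -0.90 in ams). Why the counts below moved was not tested. As reported, the calls numbered 44 for dyt1 and 798 for ams, each against wild type, and 1108 between the mutants, with 2 in the pattern of the members, 1 in the mirror pattern, and 2 of 6 bromodomain genes between the mutants. Leaving out 1 array gave 1 to 702, 279 to 4146, 354 to 2945, 0 to 12 and 0 to 13 for the first 5, 0 to 1, 2 to 7 and 2 to 6 of the 40 neighbours in the 3 comparisons, and 0 to 4 bromodomain genes in ams against wild type and 0 to 5 between the mutants. The highest of each came without wild type 3 or dyt1 2. Without both, the counts were 3720, 7862, 5958, 148 and 63, with 3, 9 and 11 neighbours and 4 and 5 bromodomain genes. Between wild type and either mutant, genotype then cannot be told apart from spike-in level. Between ams and either other group, it cannot be told apart from the 25S signal or the difference between the actin probe sets. With the 25S set as a block, 274 were called in dyt1 against wild type, 1 in the members' pattern (AT1G58025), 4 in the mirror pattern and 1 bromodomain gene between the mutants. Each comparison fitted on its own groups gave 8 in dyt1 against wild type, 1979 between the mutants, 1 in the members' pattern (AT1G58025), 0 in the mirror pattern and 4 bromodomain genes. An adjusted p under 0.01 gave 3, 259, 289, 0 and 0, and 0 bromodomain genes. A 2-fold limit left 708 between the mutants. Quantile normalization gave 29 in dyt1 against wild type and 1 bromodomain gene, and arrays centred on their median gave 0 in the mirror pattern and 1 bromodomain gene, with a shift of all probe sets of -0.11 in both mutants. Replicate numbers 1 to 3 recur in each group, but were not taken to pair the samples: deviations of same-numbered samples correlated at -0.012 to 0.24, 4 of 9 pairs above 0.1, and samples were closest to their own number in 9 of 18 cases. The replicate block gave 729 calls between the mutants, 1 in the members' pattern (AT1G58025) and 1 bromodomain gene.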

Other observations

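In the 100 measured genes on each side of AT1G58025, 0 were called in dyt1 against wild type and 6 rose and 0 fell in ams, or 3% of 200. Around AT1G42705 the same window held 0 calls in dyt1 and 5 that rose and 2 that fell in ams, or 3.5% of 200, beside 3.51% of all probe sets.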
